A study of Mus musculus with 4 samples.

Results

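The 7 genes described here encode the enzymes that place, maintain and remove DNA methylation, together with the maintenance cofactor Uhrf1, and they are Dnmt1, Dnmt3a, Dnmt3b, Tet1, Tet2, Tet3 and Uhrf1. They were chosen by symbol, and all 7 were listed in both deposited tables, among 10663 usable genes in the table of regulatory T cells (Treg) and 23259 in the table of transduced cells. The 4 RNA sequencing libraries, 1 per group, came from mouse T cells of 2 separate experiments. In the first, splenic Treg of Balb/c mice with the Foxp3-hCD2 reporter, which marks Foxp3-expressing cells with human CD2, came from a DSS group, given 3% dextran sulfate sodium in the drinking water over 7 days, and from an untreated group. DSS damages the lining of the gut and is a common way to induce colitis. In the second, wild-type C57BL6 naive CD4 T cells received a vector with Sox12, a SoxC transcription factor, or a mock vector, and the series title names induction of Treg by Sox12 as the subject. The labels do not say how many mice were pooled, their age, how long the transduced cells were cultured or whether they were sorted. With 1 library per group there is no replicate spread and no test, so each value is given for both libraries and read against the differences of all genes.

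In mammals DNA methylation sits mainly on cytosines of CpG pairs. Dnmt3a and Dnmt3b set new marks, Uhrf1 binds half-methylated DNA behind the replication fork, and Dnmt1, brought there by Uhrf1, copies the pattern to the new strand. The Tet enzymes oxidise methylated cytosine, which leads to loss of the mark by dilution at cell division or by excision repair. In mouse Treg an intronic enhancer of Foxp3 is free of methylation, which is tied to stable Foxp3 expression. Tet2 and Tet3 are known to keep it so, and Dnmt1 is known to hold Foxp3 silent in conventional T cells.

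Levels are in FPKM, fragments scaled by transcript length and library depth, a per-length scale on which genes of 1 library can be set against each other. In both Treg libraries the order of the levels was Dnmt1, Tet3, Uhrf1, Dnmt3a, Tet2, Dnmt3b and Tet1, from high to low. In both transduced libraries it was Dnmt1, Uhrf1, Dnmt3a, Tet3, Tet2, Dnmt3b and Tet1. Dnmt1 thus led all 4 libraries and Tet1 was last in all 4. Tet3 stood above Uhrf1 and Dnmt3a in Treg and below both in the transduced cells. Which neighbours in these orders differ beyond replicate spread is unknown. The closest pair among the transduced libraries was Dnmt1 and Uhrf1, with a Dnmt1 to Uhrf1 ratio of 1.21 with the Sox12 vector and 1.06 with the mock vector.

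**Figure D1:**
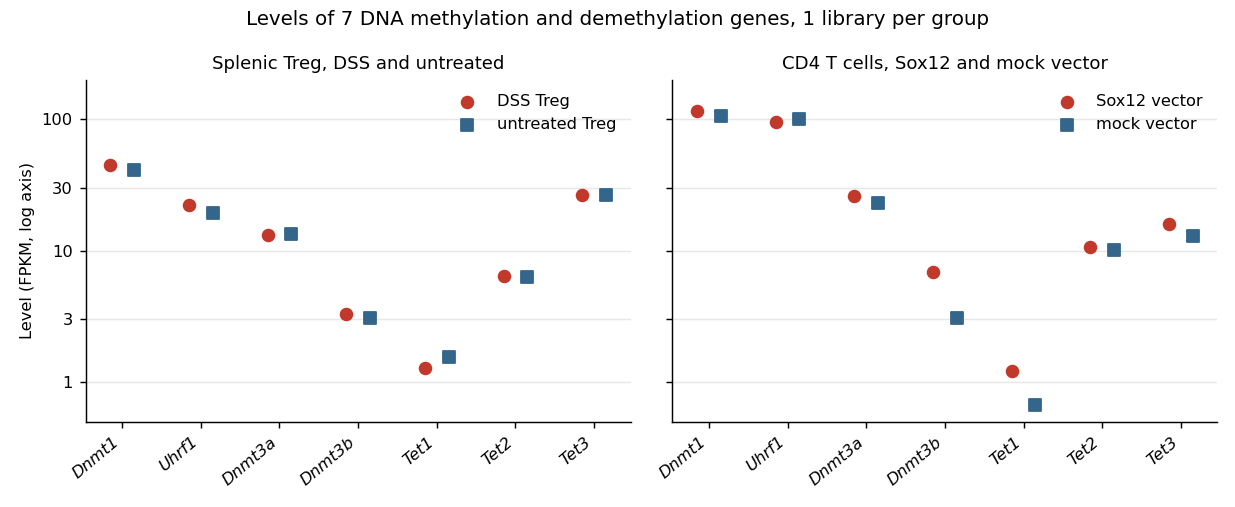
Level of each of the 7 genes in FPKM on a log axis, 1 point per library, with the DSS and untreated Treg libraries in the left panel and the Sox12 and mock vector libraries in the right. Dnmt1 is highest and Tet1 lowest in every library, and the widest gaps between paired points are those of Dnmt3b and Tet1 in the right panel.

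Proportions within a library do not depend on the scaling of that library, so they can be read beside each other across the 2 tables, which were normalised separately. The 3 Dnmt genes summed to 61.9 FPKM in DSS Treg and 57.9 FPKM in untreated Treg, and the 3 Tet genes to 34.3 FPKM in DSS Treg and 34.5 FPKM in untreated Treg. The ratio of summed Dnmt to summed Tet was therefore 1.81 in DSS Treg and 1.68 in untreated Treg. In the transduced cells the Dnmt sum was 148 FPKM with the Sox12 vector and 133 FPKM with the mock vector, and the Tet sum was 27.8 FPKM with the Sox12 vector and 23.8 FPKM with the mock vector. That ratio was 5.32 with the Sox12 vector and 5.58 with the mock vector. Its small difference between the vectors turned round without the most abundant gene of each family, at 2.78 with the Sox12 vector and 2.40 with the mock vector. On that measure the ratio was 2.14 in DSS Treg and 2.10 in untreated Treg, so the gap between the experiments was much smaller. The Treg libraries thus held fewer Dnmt transcripts per Tet transcript than the transduced libraries, but strain, cell type, culture and division differ between the experiments as well, so their parts cannot be told apart.

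Dnmt1 made up most of the Dnmt transcripts in every library, at 73.2% in DSS Treg, 71.5% in untreated Treg, 77.6% with the Sox12 vector and 80.4% with the mock vector. Dnmt3b held 5.38% and 5.33% of the Dnmt sum in DSS and untreated Treg. With the vectors its share was 4.63% with Sox12 and 2.30% with mock. Tet3 held 77.4% of the Tet sum in DSS Treg and 77.2% in untreated Treg, and 57.1% with the Sox12 vector and 54.5% with the mock vector. Tet2 took most of the remainder, so the Tet transcripts of Treg were mainly Tet3 and those of the transduced cells a mixture of Tet3 and Tet2.

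**Figure D2:**
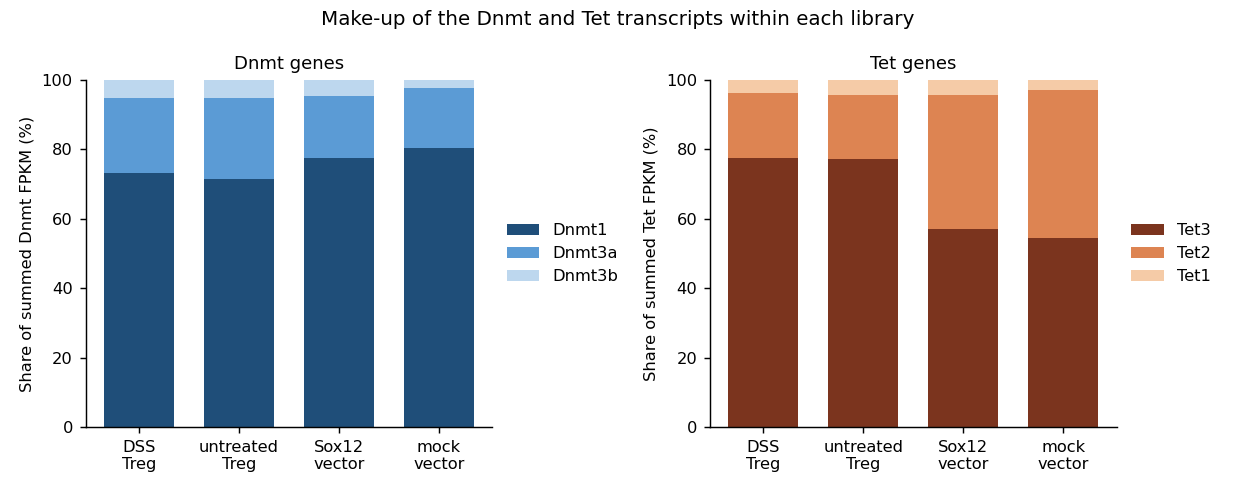
Share of each gene in the summed FPKM of the 3 Dnmt genes (left) and of the 3 Tet genes (right), in percent, with 1 bar for each of the 4 libraries. Dnmt1 fills 71.5% to 80.4% of the Dnmt bars, and Tet3 fills 77.2% to 77.4% of the Tet bars in Treg and 54.5% to 57.1% in transduced cells.

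Between DSS and untreated Treg the methylation enzymes differed little. The maintenance pair was slightly higher in DSS Treg and Tet1 slightly lower, while Dnmt3a, Tet2 and Tet3 were close to equality. All differences below are on the log2(FPKM + 1) scale. All 7 members averaged 1 FPKM or more over both libraries and so passed the filter. None of the 7 reached a difference of 0.25 in either direction, a size that 8.36% of all 10545 genes past the filter exceeded upward and 3.32% downward. Accordingly 0 members reached 0.5 (1.39% of genes upward, 0.692% downward), 1 (0.19% upward, 0.0759% downward) or an FPKM ratio of 2 (0.398% upward, 0.209% downward). There were 4 members above 0 and 3 below, where 66.1% of all genes were above 0 and 33.9% below. Their median difference was 0.03, beside 0.05 over all genes.

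Uhrf1, the cofactor that brings Dnmt1 to new DNA, had 22.2 FPKM in DSS Treg and 19.3 FPKM in untreated Treg. The ratio was 1.15 and the log2 difference 0.19, above that of 85.3% of genes. In mouse this gene is known to be needed for the expansion of Treg in the colon. Dnmt1 had 45.3 FPKM in DSS Treg and 41.4 FPKM in untreated Treg, a log2 difference of 0.13 that lay above that of 73.3% of genes. Both stayed above 0 under each pseudocount and scaling tried, at 0.14 to 0.20 for Uhrf1 and 0.08 to 0.13 for Dnmt1.

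The de novo enzymes stayed close to equality. Dnmt3a had 13.2 FPKM in DSS Treg and 13.4 FPKM in untreated Treg, a log2 difference of -0.01. Dnmt3b had 3.33 FPKM in DSS Treg and 3.08 FPKM in untreated Treg, a log2 difference of 0.08.

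Of the demethylases, Tet3 had 26.5 FPKM in DSS Treg and 26.6 FPKM in untreated Treg, and only 2.62% of genes differed by less. Tet2 had 6.47 FPKM in DSS Treg and 6.29 FPKM in untreated Treg, a log2 difference of 0.03 that became -0.01 when the median difference of all genes was set to 0. Tet1 had 1.28 FPKM in DSS Treg and 1.56 FPKM in untreated Treg, a ratio of 0.817 and a log2 difference of -0.17. Under the pseudocounts and scalings tried it ran from -0.27, with a pseudocount of 0.1, to -0.06, with a pseudocount of 5. On the log2(FPKM + 1) scale only 6.42% of genes were lower by more than Tet1, whose level was low. This table lists a gene only where the larger of its 2 values is above 1 FPKM. The depth of the Treg libraries is unknown, so no counting interval can be given for these ratios.

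The small upward differences of Uhrf1 and Dnmt1 stood beside a wider one of dividing-cell genes. All 25 genes of the S phase and proliferation list were higher in DSS Treg, with a median log2 difference of 0.23 and 11 of them at 0.25 or more. Among all genes past the filter 66.1% were higher, 8.36% were at 0.25 or more and the median was 0.05. The list was chosen with earlier results of these data known. The helicase subunit Mcm7 had 45.1 FPKM in DSS Treg and 38.0 FPKM in untreated Treg, and Mcm6 had 44.5 FPKM in DSS Treg and 39.3 FPKM in untreated Treg. Relative to the geometric mean of the list, Dnmt1 was lower in DSS Treg, at 2.73 against 2.99 in untreated Treg. Uhrf1 was lower on that measure as well, at 1.34 in DSS Treg and 1.40 in untreated Treg. The part of cell division in the Uhrf1 and Dnmt1 values was not tested.

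Markers of other cells also differed between the 2 Treg libraries, some lists upward and some downward in DSS Treg. All 10 erythroid markers were higher in DSS Treg and their summed level was 679 FPKM in DSS Treg and 445 FPKM in untreated Treg, led by Hba-a1 (388 and 250 FPKM in that order) and Hbb-b1 (163 and 110 FPKM). The 6 basophil and mast cell markers summed to 29.9 FPKM in DSS Treg and 8.20 FPKM in untreated Treg, led by Mcpt8 (12.6 and 2.56 FPKM) and Prss34 (8.35 and 2.44 FPKM). The 7 listed myeloid markers were mixed and summed to 39.3 FPKM in DSS Treg and 31.8 FPKM in untreated Treg. Mpo was higher, with 15.2 FPKM in DSS Treg and 9.99 FPKM in untreated Treg, while Lyz2 was lower, with 6.36 FPKM in DSS Treg and 8.30 FPKM in untreated Treg. S100a8 (0.678 and 1.08 FPKM in that order) and S100a9 (0.449 and 1.19 FPKM) were lower too, but did not pass the filter. Of the 5 myeloid markers past the filter 4 were higher in DSS Treg and 1 lower. Plasma cell markers summed to 292 FPKM in DSS Treg and 340.5 FPKM in untreated Treg, most of it Igj. B cell markers summed to 31.8 FPKM in DSS Treg and 38.9 FPKM in untreated Treg, and CD8 and NK markers to 24.0 FPKM in DSS Treg and 28.1 FPKM in untreated Treg. The part of these cells in the Uhrf1 and Dnmt1 values was not tested. In bulk samples fewer cells of a type and less RNA per cell cannot be told apart. The labelled cell type was borne by its markers, with Cd3e at 473 FPKM in DSS Treg and 468 FPKM in untreated Treg and Foxp3 at 84.9 FPKM in DSS Treg and 88.2 FPKM in untreated Treg.

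**Figure D3:**
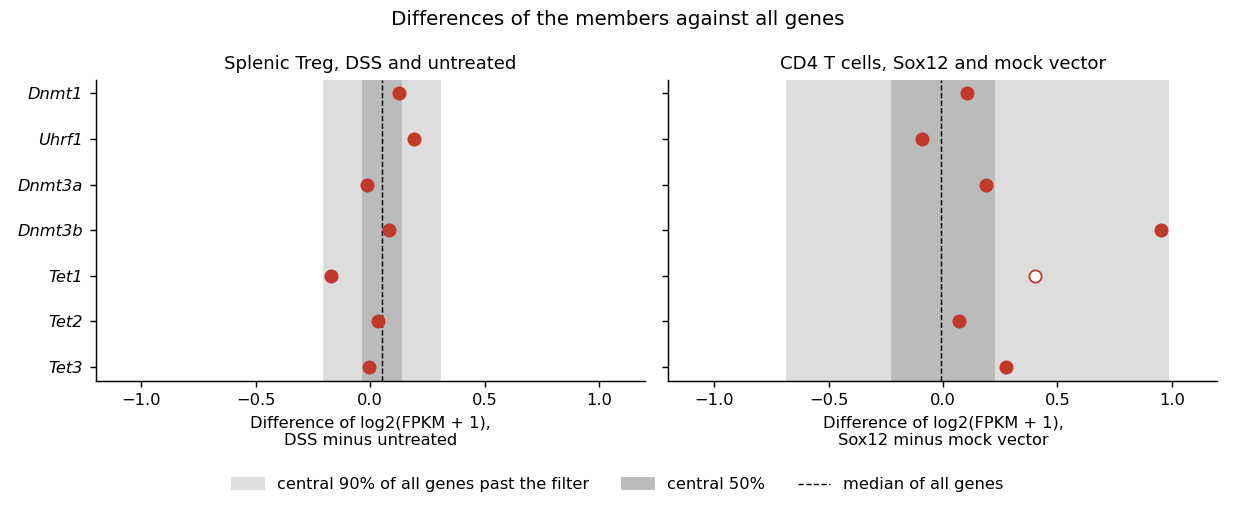
Difference of log2(FPKM + 1) of each member, DSS minus untreated Treg (left) and Sox12 minus mock vector (right), against the central 90% and 50% and the median of all genes past the filter. The open circle is Tet1, below the filter in the vector experiment. All members lie inside the central 90% in both panels, with Dnmt3b at 0.95 next to its upper edge of 0.98.

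Short motifs before the starts of the members were read from RefSeq sequence on the build GRCm38.p6. The 250 bases before each annotated start were searched on both strands for the E2F motif, written TTTCGCGC or TTTGGCGC, since E2F factors drive S phase genes. The 7 genes had 12 such windows, and 2 of them held a match, 1 at Uhrf1 and 1 at Dnmt1. Of 32851 mouse windows 0.654% held one. The motif itself contains CpG, and the matching windows held 30 CpG pairs at Uhrf1 and 26 at Dnmt1. That is more than in 94.1% and 90.4% of windows, so the 0.654% is not matched for CpG content. Whether windows equally rich in CpG hold the motif as often was not tested. The matches are printed in the direction of each gene with the motif in capitals. At Uhrf1 it begins 185 bases before 1 of 2 starts (chr17:56304118-56304145, plus strand), and at Dnmt1 219 bases before 1 of 3 starts (chr9:20952825-20952852, minus strand), where the motif lies on the opposite strand of the gene and so reads GCGCGAAA.
Uhrf1: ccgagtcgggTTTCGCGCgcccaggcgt
Dnmt1: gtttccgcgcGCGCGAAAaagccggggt
The core SOX motif ACAAAG was found in 1 of the 12 windows, at Dnmt3a, 60 bases before 1 of its 3 starts (chr12:3891674-3891699, plus strand), while 16.5% of all windows held it.
Dnmt3a: ggagttctagACAAAGaaaatgttcc
Such matches are letters in a window and do not show binding. Of the 12 windows, 11 held more CpG pairs than the median of 6 over all windows. The Tet2 window held 51, more than 99.9% of windows, the single Dnmt3b window 21, the Tet1 window 15 and the Tet3 window 17.

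With the Sox12 vector, the de novo enzyme Dnmt3b was higher than with the mock vector by a ratio above 2. The de novo enzyme Dnmt3a and the demethylase Tet3 were higher by less, and the maintenance pair differed little. Of the 7 members 6 passed the filter, with 5 above 0 and 1 below, where 48.9% of all 10822 genes past the filter were above 0 and 51.1% below. Their median log2 difference was 0.15, beside -0.01 over all genes. There were 2 members at 0.25 or more, Dnmt3b and Tet3, a size that 23.1% of genes exceeded upward, and 0 at -0.25 or less, where 22.1% of genes lay. At 0.5 or more there was 1 member, Dnmt3b, where 12.4% of genes lay, and 0 members were at -0.5 or less, where 9.1% lay. At 1 or more and at -1 or less there were 0 members, where 4.85% and 1.91% of genes lay. With 6 members, these counts do not stand apart from the background shares.

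Dnmt3b had 6.85 FPKM with the Sox12 vector and 3.06 FPKM with the mock vector, a ratio of 2.24 and a log2 difference of 0.95. This lay above the difference of 94.8% of genes, and Dnmt3b was the 1 member with an FPKM ratio of at least 2, which 6.5% of genes reached upward and 3.26% downward. The low values of this table allow its depth to be recovered, at about 44.9 fragments per FPKM and kilobase with the Sox12 vector and 42.9 with the mock vector. On the shortest coding transcript of GENCODE vM21, 3630 bases, Dnmt3b rested on about 1116 fragments with the Sox12 vector and 476 with the mock vector. The 95% counting interval of the ratio (exact binomial) ran from 2.01 to 2.50. It covers counting error only, not the preparation of a library or differences between cultures. The difference was 0.56 with a pseudocount of 5 and 1.14 with a pseudocount of 0.1.

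Dnmt3a, the more abundant de novo enzyme, had 26.3 FPKM with the Sox12 vector and 22.9 FPKM with the mock vector, a ratio of 1.15 (counting interval 1.08 to 1.21). Its log2 difference of 0.19 lay above that of 72.1% of genes, and 44.2% of genes differed by less in size. Its level was 3.84 times that of Dnmt3b with the Sox12 vector and 7.51 times with the mock vector. The annotation places an antisense gene, Dnmt3aos, over part of Dnmt3a, and whether strand was used in the quantification is not given in the sources used here. Dnmt3l, the catalytically inactive partner of the de novo enzymes in germ cells, was listed at 0 in both vector libraries.

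Dnmt1 had 115 FPKM with the Sox12 vector and 107 FPKM with the mock vector, a ratio of 1.08 (counting interval 1.06 to 1.09). Uhrf1 had 94.7 FPKM with the Sox12 vector and 100.8 FPKM with the mock vector, a ratio of 0.939 (counting interval 0.918 to 0.961). The pair thus differed in opposite directions, Dnmt1 upward by a log2 difference of 0.10 and Uhrf1 downward at -0.09, both inside the central 50% of all genes. The signs held under each pseudocount and scaling tried. The S phase and proliferation list also lay near equality here, with 10 of 25 genes higher, 15 lower and a median of -0.06. Among them Top2a, which untangles replicated DNA, had 224 FPKM with the Sox12 vector and 192 FPKM with the mock vector, and Mcm6 had 155 FPKM with the Sox12 vector and 143 FPKM with the mock vector. Their geometric mean was 54.1 FPKM with the Sox12 vector and 54.5 FPKM with the mock vector.

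Tet3 had 15.9 FPKM with the Sox12 vector and 12.96 FPKM with the mock vector, a ratio of 1.23 (counting interval 1.17 to 1.28) and a log2 difference of 0.27. Tet2 had 10.7 FPKM with the Sox12 vector and 10.1 FPKM with the mock vector, a ratio of 1.06 (counting interval 1.01 to 1.10), and an annotated gene, Gm42567, overlaps it on the opposite strand. Tet1 had 1.22 FPKM with the Sox12 vector and 0.676 FPKM with the mock vector and did not pass the filter. Its ratio was 1.80, with a counting interval of 1.59 to 2.04 on a transcript of 13986 bases. Its log2 difference of 0.40 was 0.76 with a pseudocount of 0.1 and 0.13 with a pseudocount of 5, so its size rests on the scale used. All 3 Tet genes were above the mock vector under each pseudocount and scaling tried. In size, 58.0% of genes past the filter differed by less than Tet3 and 18.4% by less than Tet2.

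These values stood beside large differences elsewhere in the same libraries. Sox12 itself had 829 FPKM with the Sox12 vector and 1.56 FPKM with the mock vector. Foxp3, the lineage factor of Treg, had 127 FPKM with the Sox12 vector and 20.9 FPKM with the mock vector, a ratio of 6.08. Of the 6 Treg genes known to carry regions demethylated in Treg, 3 were higher and 3 lower, with a median of 0.06. Foxp3 was the 1 gene of this list past a difference of 1. Of the 6 Treg markers, 2 were higher and 4 lower (median -0.17), where 48.9% of all genes were higher. The 2 lists share genes. Il2ra had 568 FPKM with the Sox12 vector and 629 FPKM with the mock vector, and Tnfrsf18 183 FPKM against 330 FPKM. Folr4 had 38.9 FPKM with the Sox12 vector and 124 FPKM with the mock vector, a log2 difference of -1.65. All 7 T cell markers that were listed were lower with the Sox12 vector, with Thy1 at 683 FPKM against 795 FPKM with the mock vector and Cd2 at 361 FPKM against 645 FPKM. The 6 CD8 and NK markers were higher and summed to 298 FPKM with the Sox12 vector and 115 FPKM with the mock vector. By the mean of both libraries the most abundant were Nkg7 (215 and 80.0 FPKM in that order) and Eomes (33.0 and 17.4 FPKM). Klrd1 had 33.6 FPKM with the Sox12 vector and 11.3 FPKM with the mock vector. Cd8a had 5.58 FPKM with the Sox12 vector and 0.580 FPKM with the mock vector. Of the 11 myeloid markers 4 were listed at 0 in both libraries, among them S100a8 and S100a9. The part of the cell makeup in the Dnmt3b value was not tested.

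The partners of the members were read from lists, and their counts above 0 stand against the 66.1% of all genes above 0 in DSS Treg and 48.9% with the Sox12 vector. Of the maintenance partners, which include replication and chromatin proteins that meet Uhrf1 or Dnmt1, 7 of 9 were higher in DSS Treg (median 0.08), with the sliding clamp Pcna at 145 FPKM in DSS Treg and 132 FPKM in untreated Treg and the deacetylase Hdac1 at 66.2 FPKM in DSS Treg and 63.0 FPKM in untreated Treg. With the Sox12 vector 3 of 9 were higher (median -0.01), a count that was 1 with equal 75th percentiles and 6 with equal totals. Pcna was at 349 FPKM with the Sox12 vector against 352 FPKM with the mock vector and Hdac1 at 129 FPKM against 128 FPKM. Uhrf2, the relative of Uhrf1 that does not replace it in maintenance, was named after its values were seen. It had 36.0 FPKM with the Sox12 vector and 23.7 FPKM with the mock vector, a log2 difference of 0.58. The Uhrf1 to Uhrf2 ratio was 2.63 with the Sox12 vector and 4.25 with the mock vector, and 0.736 in DSS Treg and 0.674 in untreated Treg. Uhrf1 thus exceeded Uhrf2 in the transduced cells and was below it in the Treg.

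Among de novo cofactors and chromatin partners 8 of 8 genes past the filter were above 0 in DSS Treg, with a median of 0.06 that is close to that of all genes. The count rests on the scaling, since it was 4 of 8 with the median difference of all genes set to 0, 5 with equal 75th percentiles and 6 with equal totals. The corepressor Trim28 had 68.0 FPKM in DSS Treg and 66.4 FPKM in untreated Treg, and the histone methyltransferase Ehmt2 had 51.5 FPKM in DSS Treg and 46.3 FPKM in untreated Treg. With the Sox12 vector 5 of 8 were higher (median 0.16). Ezh2, the catalytic subunit of Polycomb complex PRC2, had 128 FPKM with the Sox12 vector and 78.9 FPKM with the mock vector, and Trim28 had 135 FPKM against 112 FPKM with the mock vector.

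The list of TET partners and cofactor enzymes had several genes with large differences between the vectors. Of its 8 genes past the filter 5 were higher and 3 lower with the Sox12 vector. Their median was 0.64 and 4 genes were at 1 or more, where 4.85% of all genes lay. The list was chosen with earlier results of these data known, so the 4.85% is a scale for the count and not a test of it. The median was 0.26 both without a filter and with a filter of 5 FPKM. Idh2 and Idh1 make alpha-ketoglutarate, the cosubstrate of the Tet enzymes. Idh2 had 61.6 FPKM with the Sox12 vector and 21.0 FPKM with the mock vector. Idh1 had 14.5 FPKM with the Sox12 vector and 5.13 FPKM with the mock vector. Idh3a, of the same list, was lower, with 40.1 FPKM with the Sox12 vector and 44.8 FPKM with the mock vector. Cxxc5, a CXXC zinc finger protein that binds Tet2, had 5.76 FPKM with the Sox12 vector and 1.36 FPKM with the mock vector. Zscan21, the last of the 4 genes at 1 or more, had 21.0 FPKM with the Sox12 vector and 9.84 FPKM with the mock vector. Zscan21 and Rinl were put in the list without a known role beside the Tet enzymes, and without them 3 of 6 genes were at 1 or more and the median was 0.80. In Treg the same list had 5 of 8 genes above 0 and a median of 0.03, with Ogt, which attaches N-acetylglucosamine to proteins and binds the Tet enzymes, at 66.1 FPKM in DSS Treg and 72.0 FPKM in untreated Treg and Rinl at 80.0 FPKM in DSS Treg and 83.9 FPKM in untreated Treg.

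Genes of the excision repair of oxidised cytosine were higher with the Sox12 vector in 11 of 14 cases (median 0.24). The 1 gene of the list at 1 or more, near the 4.85% of all genes there, was Gadd45g, a stress-response gene of activated T cells, with 84.5 FPKM with the Sox12 vector and 33.1 FPKM with the mock vector. Tdg, the glycosylase that removes oxidised cytosine, had 1.38 FPKM with the Sox12 vector and 0.754 FPKM with the mock vector, and it was named after its values were seen. Its near-identical processed copies may share its reads. In Treg 9 of 14 were above 0 (median 0.10), near the share of all genes, with Parp1 at 35.5 FPKM in DSS Treg and 33.1 FPKM in untreated Treg and Polb at 18.1 FPKM in DSS Treg and 16.3 FPKM in untreated Treg. The methyl donor cycle, which supplies S-adenosylmethionine, stayed near equality in both experiments. With the Sox12 vector 7 of 11 genes were higher (median 0.09), with Ahcy at 157 FPKM against 143 FPKM with the mock vector and Shmt2 at 120.5 FPKM against 136 FPKM. In DSS Treg 7 of 11 were higher (median 0.01), near the share of all genes, and 5 of 11 under each of the 3 scalings, with Mat2a, which makes S-adenosylmethionine, at 57.6 FPKM in DSS Treg and 62.9 FPKM in untreated Treg and Mat2b at 49.3 FPKM in DSS Treg and 46.1 FPKM in untreated Treg.

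**Figure D4:**
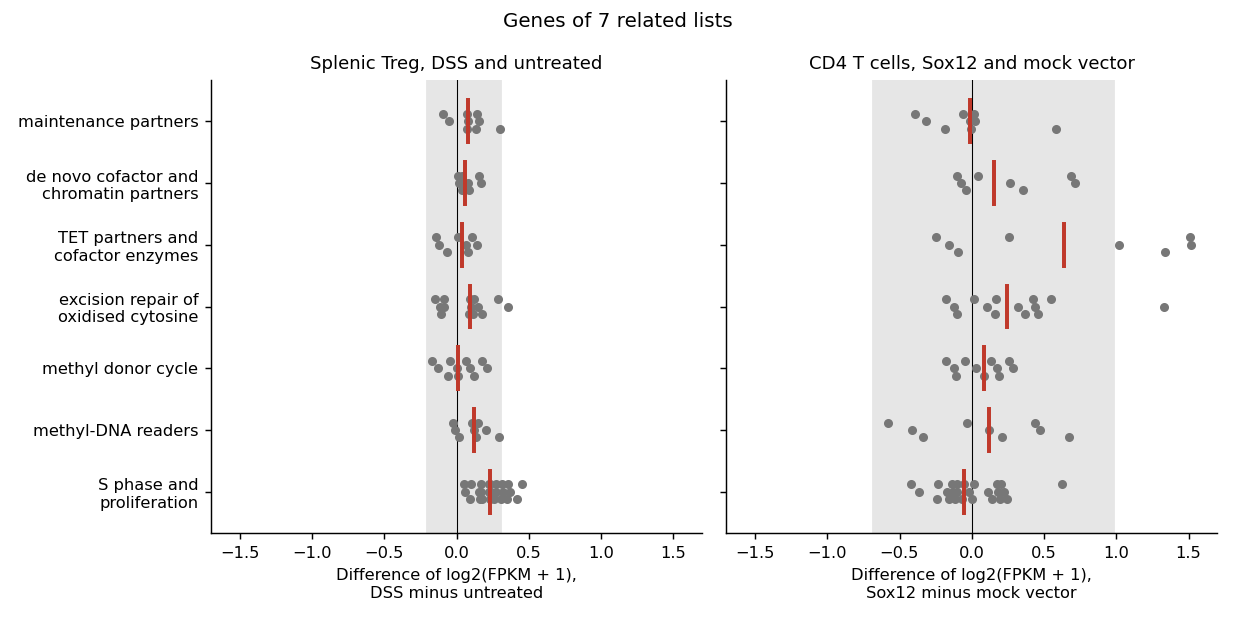
Difference of log2(FPKM + 1) of every gene past the filter in 7 lists, DSS minus untreated Treg (left) and Sox12 minus mock vector (right), with 1 grey point per gene, the list median as a red bar and the central 90% of all genes shaded. The proliferation genes lie above 0 in the left panel, and 4 genes of the TET partner list lie at 1 or more in the right.

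The genes most like each member were sought by the distance between their 2 differences, DSS and vector, among genes that averaged 5 FPKM or more in both tables. Dnmt3b was nearest to Gtf3c6 and Zfp219, and 46 of 7320 genes lay within a distance of 0.1. Around Tet2 there were 1095 of 7319 genes, with Taldo1 and Haus6 nearest, and around Dnmt1 745 genes, with Med8 and Psme3 nearest. Around Dnmt3a there were 626 genes, with Gm10052 and Hdac8 nearest, around Uhrf1 488, with Abhd16a and Ing2 nearest, and around Tet3 431, with Ovca2 and Clcn7 nearest. With 2 differences per gene this likeness is loose. The Dnmt3b pair of values was the least common among the 6 members compared. Dnmt3b itself averaged 3.20 FPKM in Treg and 4.95 FPKM in the transduced libraries, below the 5 FPKM asked of its neighbours. The part of this low level in its rank was not tested.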

How the data were processed

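Libraries from total RNA were strand-specific, per the labels' protocols. Cufflinks and the build mm9 are named, without versions, in the submitters' processing notes. The sources used here name neither an aligner nor an annotation. The authors deposited linear FPKM for the Treg libraries with a ratio of DSS to untreated, and log2(FPKM + 1) for the vector libraries with a log2 fold change. Recomputed comparisons matched the deposited ones within 0.000448 (relative) and 5e-10. The vector values were turned back to FPKM. Rows whose symbol a spreadsheet had turned into a date (16 and 25) were left out.

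Differences are log2(FPKM + 1), DSS minus untreated and Sox12 minus mock vector, which understates the change of low genes. Genes averaging 1 FPKM or more over both libraries were kept. The depth of the vector libraries came from genes whose low values are worth 1 fragment, 36 and 32 genes at the most frequent value in the Sox12 and mock vector libraries, so it is approximate. Fragments were counted on GENCODE vM21 transcripts of GRCm38, another build than the authors', and no coordinates were carried over. The members and lists were chosen with earlier results of these data known. Named genes were the 7 members, Sox12 and Foxp3, and the 2 nearest genes of each member. Of the lists, up to 4 genes at 1 or more were named, or else the 2 most abundant. Of the marker lists, at most the 2 most abundant were named, and of some lists fewer or none. Idh3a, Klrd1, Cd8a and Folr4 were named after their values were seen, and S100a8, S100a9 and Dnmt3l were named outside these rules. Alternatives were pseudocounts of 0.1 and 5, 3 scalings, no filter and a filter of 5 FPKM. The log2 differences and the counting intervals were checked on simulated counts. The recovery of depth, the choice of transcript length, the lists, the scalings and the motif search were not checked in this way. Python 3.11.15, pandas 2.3.3 and scipy 1.17.1 were used.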

Additional observations from a re-analysis of the deposited data

How the results depend on the processing

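No paired analysis was possible because each group has 1 library, and for the same reason no library could be left out. In Treg the members' median of 0.03 became -0.0091 when the median difference of all genes was set to 0, and with a pseudocount of 0.1 the number of members lower by at least 0.25 was 1 (Tet1). Between the vectors, the number of members at 0.25 or more was 1 with a pseudocount of 5, with equal 75th percentiles and with the stricter filter of 5 FPKM. That filter leaves out Dnmt3b, so 0 members were at 0.5 or more. At 1 or more there was 1 (Dnmt3b) with a pseudocount of 0.1 and when totals were made equal leaving out the 20 highest genes. The Dnmt to Tet ratio without the most abundant gene of each family was 2.14 in DSS Treg, 2.10 in untreated Treg, 2.78 with the Sox12 vector and 2.40 with the mock vector. As a ratio of geometric means of FPKM + 1 it was 3.84 with the Sox12 vector and 3.42 with the mock vector. The list medians near 0 also changed sign. In Treg these were the TET partner list (-0.0084 with the median difference set to 0) and the methyl donor cycle (-0.039, -0.026 and -0.015 with the median difference set to 0, equal 75th percentiles and equal totals). Between the vectors they were the maintenance partners (0.046) and the proliferation list (9.16e-05), both under that scaling of totals. Among single members Tet2 in Treg changed sign (0.03, and -0.0091 with the median difference set to 0), and the other 6 kept their sign in both experiments under these pseudocounts and scalings. The germline list has 0 genes past the filter between the vectors and so no alternative values. The cause was not tested. The depth of the Treg libraries is unknown.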

Other observations

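Genes of proteins that read methylated DNA, listed together with others of the same protein family, were mixed in both experiments. In Treg 7 of 9 were above 0 (median 0.12), where 66.1% of all genes were, with Mbd2, which binds methylated DNA for the NuRD complex, at 95.8 FPKM in DSS Treg and 83.2 FPKM in untreated Treg and Mbd3 at 42.9 FPKM in DSS Treg and 43.7 FPKM in untreated Treg. With the Sox12 vector 5 of 9 were higher and 4 lower (median 0.12), with Mbd2 at 92.5 FPKM against 124 FPKM with the mock vector and Mbd3 at 53.4 FPKM against 49.1 FPKM. Mbd2 thus lay on opposite sides of equality in the 2 experiments.

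Germline genes that promoter methylation is known to silence were scarce. Of 20 such genes 0 passed the filter in the vector experiment and 10 were listed at 0 in both libraries. Their summed level was 0.901 FPKM with the Sox12 vector and 1.23 FPKM with the mock vector. Most of it was Brdt, with 0.472 FPKM with the Sox12 vector and 0.956 FPKM with the mock vector. Tuba3a had 0.167 FPKM with the Sox12 vector and 0.0788 FPKM with the mock vector. For the Treg libraries 2 of the 20 were listed, Sycp1 at 1.23 FPKM in DSS Treg and 1.58 FPKM in untreated Treg and Tuba3a at 0.978 FPKM in DSS Treg and 1.10 FPKM in untreated Treg.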
